A study of Mus musculus with 24 samples.

Results

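Hypoxia response and glycolysis genes were followed through RNA sequencing of MC38 and B16 mouse tumours, as a list of 41 genes named by symbol, out of 55335 gene IDs measured. The IDs of the files were matched to GENCODE M21 symbols, all 41 genes were found, and Ero1l is the gene that RefSeq now calls Ero1a. MC38 cells derive from a mouse colon carcinoma, B16 cells from a mouse melanoma, and both were grown as tumours in mice. Each tumour line was either knocked out for Chek2 (KO) or was the parental line with intact Chek2 (WT), and the mice received either anti-PD-1, an antibody that blocks a braking receptor on T cells, or PBS. Chek2 encodes the checkpoint kinase CHK2, which signals DNA double-strand breaks. The 8 groups of 3 libraries were MC38 KO with anti-PD-1, MC38 KO with PBS, MC38 WT with anti-PD-1, MC38 WT with PBS and the same 4 for B16. The labels give no age, sex or strain of the mice, no number of clones per knockout and no dose or time of treatment. Nor do they say if the libraries within a group stem from different animals, so the p-values reflect only how these libraries vary, which may be technical.

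When oxygen is short, the prolyl hydroxylases encoded by the Egln genes stop marking the HIF alpha subunits for destruction, and the subunits pair with Arnt and switch on genes that carry a short hypoxia response element. The targets include glucose transporters and nearly every enzyme of glycolysis, which makes ATP without oxygen, as well as genes for vessel growth, acid export, mitophagy and collagen hydroxylation. Solid tumours often hold poorly perfused, hypoxic regions, and many tumour cells run glycolysis also where oxygen is present.

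The values are FPKM, fragments per unit of transcript length and of sequencing depth, as deposited. One library summed to between 310868 and 398474 FPKM, the steps between low values put its depth at about 13500000 to 24500000 fragments, and libraries of a group correlated across genes at r = 0.979 to 0.992. Chek2 had 1.92 to 2.40 FPKM in MC38 KO tumours under PBS, against 4.61 to 6.14 FPKM in MC38 WT tumours, and 5.64 to 5.68 FPKM in B16 KO tumours, against 7.17 to 7.93 FPKM in B16 WT tumours. By limma the log2 difference was -0.99 in MC38 (adjusted p = 0.000178) and -0.37 in B16, where the test was not passed (adjusted p = 0.106). Under anti-PD-1, Chek2 had 3.06 to 3.37 FPKM in MC38 KO tumours, against 5.01 to 5.72 FPKM in MC38 WT tumours (-0.61, adjusted p = 0.00375), and 6 to 6.75 FPKM in B16 KO tumours, against 7.52 to 9.29 FPKM in B16 WT tumours (-0.31, adjusted p = 0.0154, lost in 4 of 12 alternative settings). In MC38 KO tumours it was higher with anti-PD-1 than with PBS (0.41, adjusted p = 0.0255). Chek2 RNA of host and tumour cells cannot be told apart. All 7 melanocyte markers were detected in B16, and their summed level was 5000 to 6440 FPKM, against 0.933 to 3.16 FPKM in MC38. In MC38 the 7 colon epithelial markers summed to only 0.206 to 29.1 FPKM, with Cdx2 at 0 in every library. The 3 B16 KO libraries with anti-PD-1 stood apart from the other 21: genes with transcripts over 4000 bases gave 9.37 to 11% of their protein-coding FPKM, against 14.9 to 18% elsewhere, so the calls that rest on them are given again with the trend over transcript length removed. In bulk tumours, fewer cells of a type and less RNA per cell cannot be told apart.

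Most of the genes were well expressed. In WT tumours under PBS, 8 of 41 in MC38 and 10 in B16 averaged at least 100 FPKM, 21 in each line lay between 10 and 100 FPKM, and 3 in each were under 1 FPKM. Pgk1, which makes the first ATP of glycolysis, was the most abundant in MC38 WT tumours with 489, 564 and 551 FPKM. The brain form of enolase Eno2 and the carbonic anhydrase Car12 stayed under 1 FPKM in all 24 libraries, and in MC38 so did the glucose transporter Slc2a3. These were below the filter for testing (1 FPKM or more in 3 or more of a line's 12 libraries), which left 38 genes tested in MC38 and 39 in B16.

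**Figure D1:**
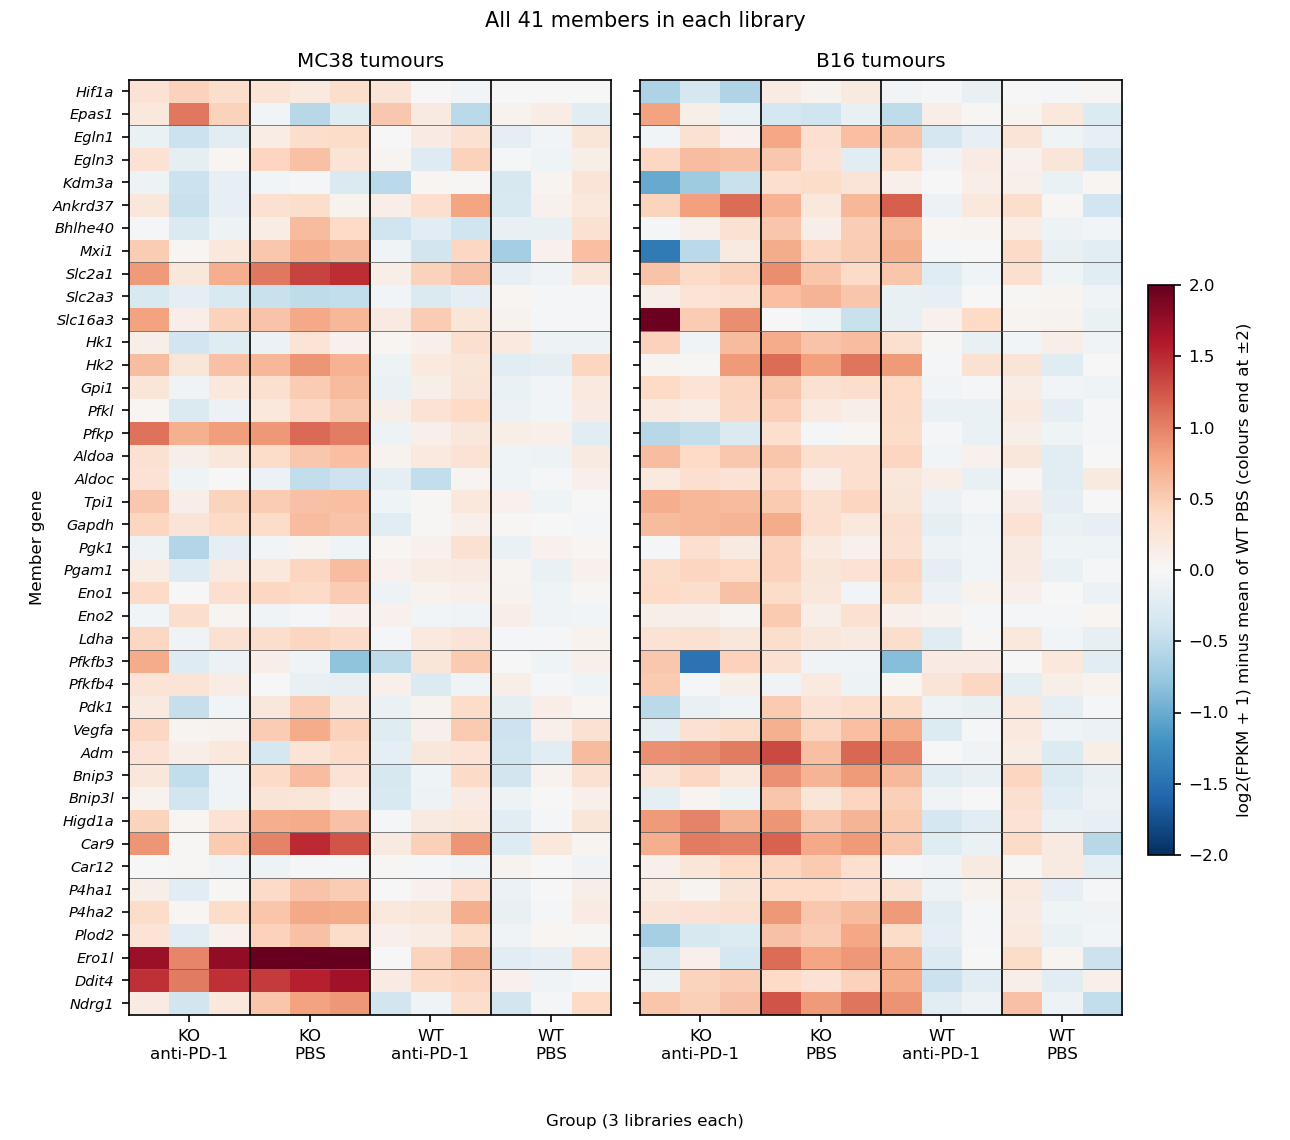
Each of the 41 genes (rows, grouped by role) in each of the 24 libraries (columns), as log2(FPKM + 1) minus the mean of the 3 WT PBS libraries of the same line; colours end at 2 in either direction. Ero1l and Ddit4 are the darkest rows in the MC38 KO columns, and in B16 Slc16a3 is darkest in 1 KO library with anti-PD-1.

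In MC38 tumours under PBS, 21 of the 38 tested genes were higher in KO than in WT tumours and 0 were lower, at an adjusted p under 0.05 by limma (Benjamini-Hochberg over all 14209 genes tested). Of all genes tested, 11.9% were called higher and 11.6% lower in this comparison. At an unadjusted p under 0.05, 26 of the 38 were higher and 0 lower. For this and all later unadjusted counts, the share of all genes at the same threshold was not computed. The groups did not overlap for 25 genes that were higher and 1 that was lower, where 20.4% and 19.5% of all genes did so. The median difference of the 38 genes was 0.43 on the log2 scale, against 0.01 for all genes tested. The increase ran through glucose uptake, 10 of the 13 tested glycolytic enzymes, lactate export, pH control and collagen hydroxylation.

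Ero1l, the oxidase of the endoplasmic reticulum that regenerates disulfide-forming enzymes, changed most. It had 351, 367 and 347 FPKM in KO tumours, against 69.6, 71.5 and 105 FPKM in WT tumours. Every KO library was more than 3 times as high as any WT library. The means differed 4.34-fold (log2 difference 2.13 ± 0.24 SE, adjusted p = 0.000291 by limma). Ddit4, an inhibitor of mTORC1 that hypoxia and other stresses induce, had 82.3, 92.5 and 101 FPKM in KO tumours, against 32.8, 29.2 and 30.2 FPKM in WT tumours. The groups were far apart and tight, with a difference of 2.99-fold (1.55 ± 0.12, adjusted p = 7.1e-05).

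Slc2a1, the main glucose importer, had 88.0, 108 and 119 FPKM in KO tumours, against 37.5, 39.7 and 49.5 FPKM in WT tumours. It rose 2.49-fold (1.30 ± 0.18, adjusted p = 0.00106), and no libraries of the groups overlapped. Slc16a3, which exports lactate with protons, rose 1.60-fold (0.67, adjusted p = 0.00816). Its values were 59.1, 67.4 and 63.1 FPKM in KO tumours, against 41.4, 38.3 and 38.6 FPKM in WT tumours. Slc2a3, the other glucose importer of the list, was at 0.226 to 0.273 FPKM in KO tumours, against 0.707 to 0.795 FPKM in WT tumours, too low for the test.

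Among glycolytic enzymes, Pfkp, the platelet form of phosphofructokinase, rose most. It had 8.54, 10.4 and 9.61 FPKM in KO tumours, against 4.65, 4.59 and 3.46 FPKM in WT tumours. The rise was 2.25-fold (1.01 ± 0.13, adjusted p = 0.000678). Hk2, the inducible hexokinase that traps glucose in the cell, rose 1.67-fold (0.75, adjusted p = 0.0116) and had 33.2, 38.7 and 33.9 FPKM in KO tumours, against 17.4, 17.8 and 28.0 FPKM in WT tumours. Smaller rises were called for the triosephosphate isomerase Tpi1 (0.57, adjusted p = 0.00512), Gapdh (0.52, adjusted p = 0.00368), the aldolase Aldoa (0.50, adjusted p = 0.00468), the glucose phosphate isomerase Gpi1 (0.49, adjusted p = 0.0229), the enolase Eno1 (0.43, adjusted p = 0.0134), the phosphoglycerate mutase Pgam1 (0.42, adjusted p = 0.0346), the liver phosphofructokinase Pfkl (0.39, adjusted p = 0.0331) and the lactate dehydrogenase Ldha (0.39, adjusted p = 0.0332). Pgk1 stood apart from this row of enzymes, with 512, 553 and 505 FPKM in KO tumours, against 489, 564 and 551 FPKM in WT tumours. Its groups overlapped, as did those of Hk1, the constitutive hexokinase. Aldoc, the brain aldolase, was the gene whose KO libraries were all lower, at 0.98, 0.527 and 0.619 FPKM, against 1.03, 1.11 and 1.31 FPKM in WT tumours, and it was not called. The regulatory enzymes Pfkfb3 and Pfkfb4 and the pyruvate dehydrogenase kinase Pdk1 were not called, nor did any of these 3 have an unadjusted p under 0.05.

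Car9, the carbonic anhydrase on the cell surface that hydrates exported carbon dioxide, had 7.92, 11.6 and 9.68 FPKM in KO tumours, against 2.74, 4.14 and 3.62 FPKM in WT tumours. It rose 2.78-fold (1.25 ± 0.23, adjusted p = 0.00408). All 3 collagen hydroxylases rose: the prolyl hydroxylases P4ha2 (0.68, adjusted p = 0.00816) and P4ha1 (0.49, adjusted p = 0.0102) and the lysyl hydroxylase Plod2 (0.48, adjusted p = 0.0156). Plod2 had 111, 121 and 104 FPKM in KO tumours, against 76.4, 82.7 and 81.2 FPKM in WT tumours. The mitochondrial protein Higd1a rose (0.69, adjusted p = 0.00447), and so did Ndrg1, a stress response gene (0.74, adjusted p = 0.0378). Of the mitophagy receptors, Bnip3 had 139, 164 and 130 FPKM in KO tumours, against 81.8, 111 and 132 FPKM in WT tumours, and it was not called; neither was Bnip3l.

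Of the 21 calls, 13 held in all 12 alternative settings. Ldha and Hif1a lost theirs without any 1 of the 6 libraries, and Pgam1 without any 1 of them but KO replicate 1. Ndrg1, Gpi1 and Pfkl lost theirs without WT replicate 1 or 2 or KO replicate 2 or 3, Eno1 without WT replicate 2 and Plod2 without KO replicate 2, with adjusted p between 0.0510 and 0.119 in these cases.

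The HIF alpha subunits moved little by comparison. Hif1a had 40.8, 39.0 and 43.4 FPKM in KO tumours, against 33.8, 34 and 33.5 FPKM in WT tumours. KO and WT libraries did not overlap and the difference was 0.27 ± 0.08 (1.22-fold, adjusted p = 0.0389), a call that was lost in 8 of 12 alternative settings. Epas1, the second alpha subunit, had 3.13, 1.92 and 2.62 FPKM in KO tumours, against 3.52, 3.76 and 2.67 FPKM in WT tumours, and did not pass the test (-0.28, adjusted p = 0.495). Of the oxygen sensors and feedback genes, 0 of 6 were called (the hydroxylases Egln1 and Egln3, the histone demethylase Kdm3a, Ankrd37, the repressors Bhlhe40 and Mxi1), although 5 of 6 differences were positive, 4 of them with an unadjusted p under 0.05 by limma, and Egln3 had 42.4, 47.3 and 38.1 FPKM in KO tumours, against 30.6, 29.5 and 33.8 FPKM in WT tumours. Vegfa, the endothelial growth factor, had 62.4, 73.4 and 60.2 FPKM in KO tumours, against 32.7, 46.8 and 54.4 FPKM in WT tumours. Its groups did not overlap, but the test was not passed (0.56, adjusted p = 0.0747). The vasodilator peptide Adm was not called either, and its groups overlapped (6.35 to 11.2 FPKM in KO tumours, against 6.11 to 13.5 FPKM in WT tumours).

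**Figure D2:**
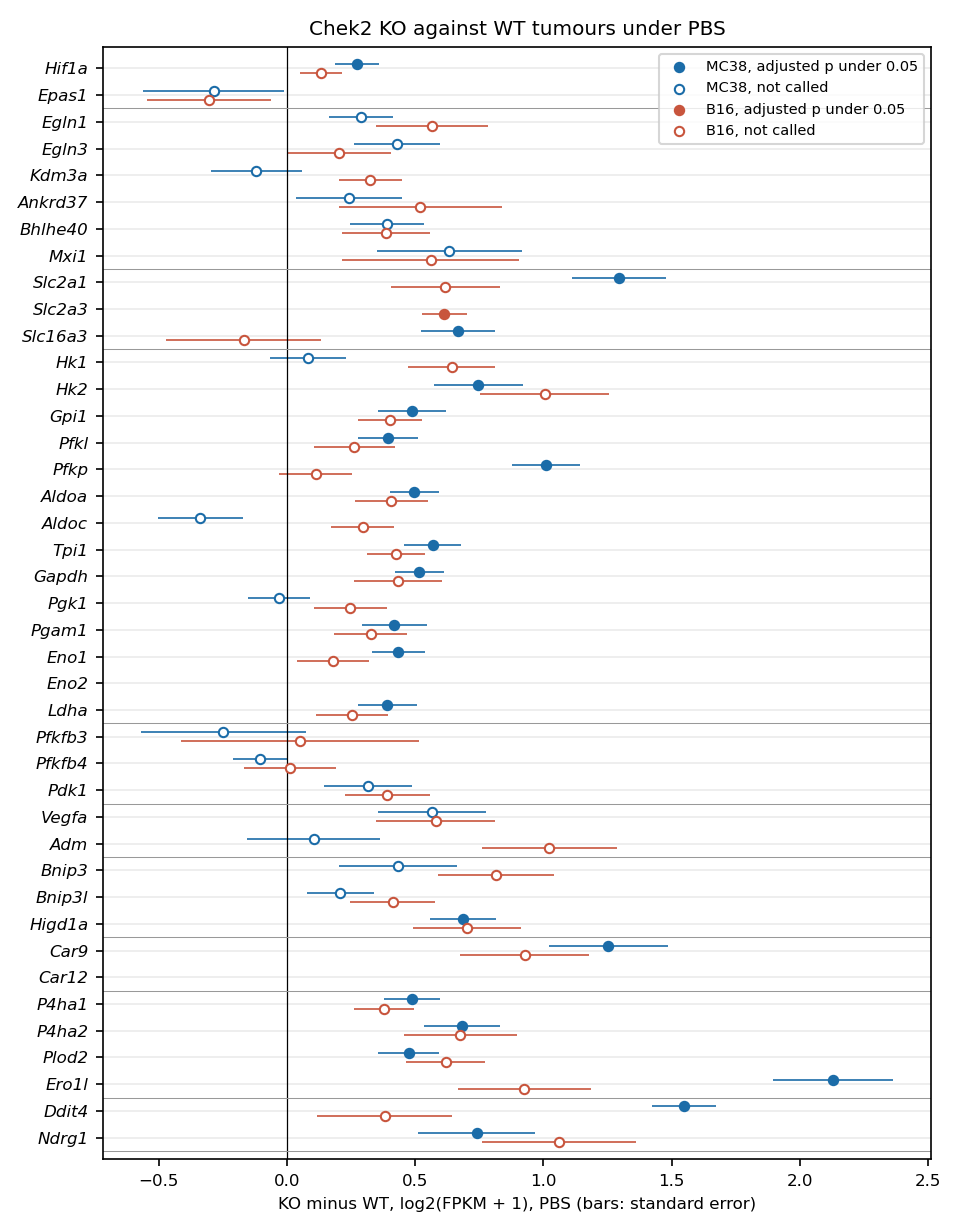
KO minus WT on the log2(FPKM + 1) scale under PBS for each gene (rows, grouped by role), in MC38 (blue) and B16 (red), with standard errors; filled circles passed limma's adjusted p of 0.05, and a gene below the filter in a line has no point. Filled blue circles run from Hif1a at 0.27 to Ero1l at 2.13, while in B16 only Slc2a3 at 0.61 is filled although most red circles lie right of 0.

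**Figure D3:**
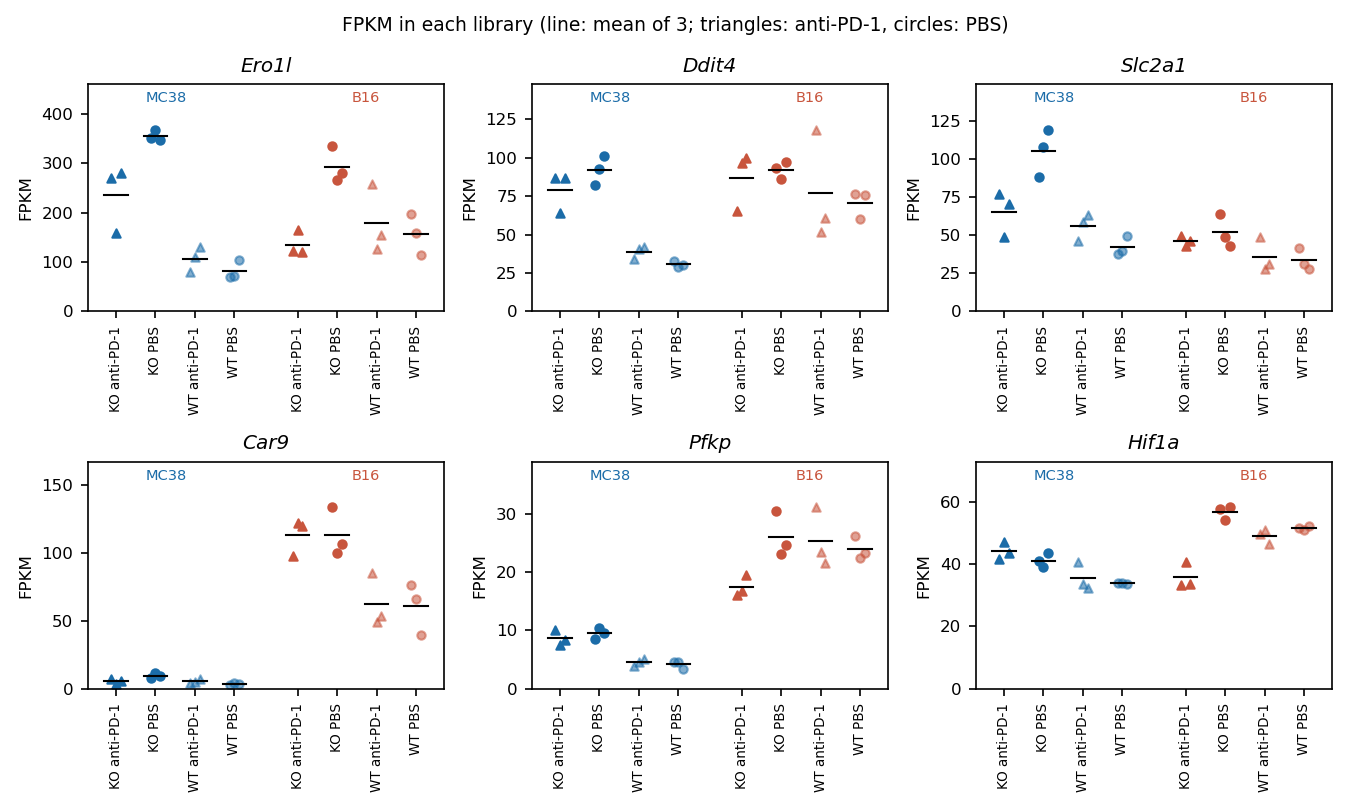
FPKM of 6 genes in each library (points; circles PBS, triangles anti-PD-1) and the mean of the 3 libraries of a group (line), MC38 in blue and B16 in red, KO in full colour and WT paler. Ero1l lies at 347 to 367 FPKM in MC38 KO tumours under PBS and at 69.6 to 105 FPKM in WT tumours, and Car9 lies at 2.74 to 11.6 FPKM in MC38 and at 39.8 to 134 FPKM in B16.

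The 4 genes with the largest rises and Pgk1, which was not called under PBS, are shown by the 250 bases before their RefSeq starts (GRCm38.p6, the strand of the gene), so that the hypoxia response elements can be compared. Capitals mark the core ACGTG or GCGTG on either strand, which reads CACGT or CACGC on the opposite one. ACGTG overlaps the E-box CACGTG that other factors bind. The regions are chr14:45318573-45318822 (minus strand) for Ero1l, chr10:59951771-59952020 (minus) for Ddit4, chr4:119108495-119108744 (plus) for Slc2a1, chr4:43506776-43507025 (plus) for Car9 and chrX:106186850-106187099 (plus) for Pgk1.
Ero1l: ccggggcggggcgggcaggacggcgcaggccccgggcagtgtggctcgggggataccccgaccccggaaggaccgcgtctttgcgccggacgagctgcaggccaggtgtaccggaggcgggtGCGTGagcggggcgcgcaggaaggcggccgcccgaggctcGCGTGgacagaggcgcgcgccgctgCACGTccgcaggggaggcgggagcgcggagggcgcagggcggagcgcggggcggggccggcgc
Ddit4: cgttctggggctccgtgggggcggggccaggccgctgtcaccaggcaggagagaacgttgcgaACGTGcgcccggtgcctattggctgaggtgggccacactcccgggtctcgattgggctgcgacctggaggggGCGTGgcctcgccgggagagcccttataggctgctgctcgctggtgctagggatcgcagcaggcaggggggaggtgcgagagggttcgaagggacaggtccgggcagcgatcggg
Slc2a1: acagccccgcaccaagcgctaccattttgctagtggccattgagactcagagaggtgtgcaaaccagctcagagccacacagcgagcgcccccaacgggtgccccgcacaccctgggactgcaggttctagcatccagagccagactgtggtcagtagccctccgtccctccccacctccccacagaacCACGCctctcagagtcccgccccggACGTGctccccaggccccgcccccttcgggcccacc
Car9: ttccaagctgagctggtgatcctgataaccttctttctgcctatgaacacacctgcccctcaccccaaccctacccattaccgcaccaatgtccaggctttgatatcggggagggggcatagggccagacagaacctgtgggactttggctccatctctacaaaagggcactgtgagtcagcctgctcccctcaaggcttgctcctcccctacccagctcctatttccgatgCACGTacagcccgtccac
Pgk1: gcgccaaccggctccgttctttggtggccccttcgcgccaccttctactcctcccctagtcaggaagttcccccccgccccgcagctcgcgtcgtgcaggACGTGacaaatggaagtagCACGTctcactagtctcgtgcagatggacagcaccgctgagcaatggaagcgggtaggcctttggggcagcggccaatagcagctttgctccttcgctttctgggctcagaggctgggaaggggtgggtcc
Ero1l holds 3 cores, Ddit4, Slc2a1 and Pgk1 hold 2 each and Car9 holds 1, which begins 18 bases before its start. Of the 41 genes, 35 had an entry, and 27 of those held a core (77.1%), against 10431 of 27025 genes in the table (38.6%). Among genes called higher in MC38 KO tumours under PBS it was 16 of 19 (84.2%), and among those tested and not called 11 of 14 (78.6%). A match is only a run of letters, not a bound site. The list was made of hypoxia response and glycolysis genes, and the genes in the table were not matched to it for expression or base content.

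Other genes of the pathway, from longer lists, gave a mixed picture in the same comparison. Of 13 tested regulators of HIF, 4 were higher and 0 lower (6 and 1 at an unadjusted p under 0.05 by limma). They include Siah2, a ubiquitin ligase that acts on the Egln hydroxylases (0.74, adjusted p = 0.00139), Arnt, the partner of the alpha subunits (0.40, adjusted p = 0.00171), and the coactivator Ep300 (0.24, adjusted p = 0.0477). Of 33 other hypoxia targets, 9 were higher and 4 lower: the lipoprotein receptor Vldlr rose by 1.56 (adjusted p = 0.000800) and the glycogen synthase Gys1 by 1.12 (adjusted p = 0.00615), while the chemokine receptor Cxcr4 (-0.68), the glycogen phosphorylase Pygl (-0.68) and Wsb1 (-0.48) were lower. Of 15 other genes of glycolysis and pyruvate use, 2 were higher and 4 lower. Tigar, a phosphatase that draws sugar phosphate away from glycolysis, rose by 1.13 and the lactate transporter Slc16a1 by 0.88. Ldhb, the lactate dehydrogenase subunit of aerobic tissue, was at 1.38 ± 0.10 FPKM in KO tumours and 5.87 ± 1.55 FPKM in WT tumours (SD, n = 3 each; -1.50, adjusted p = 0.000926 by limma), and Hk3, a hexokinase of myeloid cells, was lower too (-0.84). Among these, Ep300 lost its call in 10 of 12 alternative settings, Cxcr4 in 4 and Hk3 in 3.

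Ero1l and Ddit4 are also targets of the ATF4 stress response, which amino acid shortage and misfolded proteins switch on. Of 15 ATF4 response genes, 11 were higher and 0 lower in MC38 KO tumours under PBS (11 and 0 at an unadjusted p under 0.05). The cystine importer Slc7a11 had 9.96 ± 1.84 FPKM in KO tumours and 2.48 ± 0.69 FPKM in WT tumours (SD, n = 3 each; 1.66, adjusted p = 0.000422 by limma), Vldlr, which stands in both lists, rose by 1.56 and Chac1, which degrades glutathione, by 1.49. Of 18 chaperones and folding genes of the endoplasmic reticulum, 7 were higher and 0 lower (9 and 0 unadjusted), led by Hspa5 (0.77), Dnajb9 (0.75) and Herpud1 (0.57). Herpud1 lost its call in 6 of 12 alternative settings. Immune cell markers moved the other way. In KO tumours 9 of 10 tested T cell markers were lower, with a summed level of 6.01 to 10 FPKM against 40.1 to 57.8 FPKM in WT tumours, and 7 of 11 macrophage markers were lower, at 525 to 1330 FPKM against 1720 to 2010 FPKM. No T cell or macrophage marker was at 0 in every library of either group, the fibroblast markers, 3 of 10 of which were lower, summed to 459 to 524 FPKM against 773 to 983 FPKM, and muscle markers, none of which was called, to 3.80 to 174 FPKM against 3.63 to 46.2 FPKM. Their part in the rise of the hypoxia and glycolysis genes was not tested.

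Under anti-PD-1, 5 of the 38 genes were higher in MC38 KO than in WT tumours (5.01% of all genes) and 1 was lower (7.05% of all genes), and the median difference was 0.05. KO and WT groups did not overlap for 6 genes that were higher (16% of all genes) and 3 that were lower (18%). All 5 had also been called under PBS, in other libraries. Ero1l had 270, 159 and 279 FPKM in KO tumours, against 80.0, 110 and 130 FPKM in WT tumours (1.12 ± 0.24, adjusted p = 0.0123). Ddit4 had 86.7, 64.3 and 86.7 FPKM in KO tumours, against 34.4, 40.4 and 41.9 FPKM in WT tumours (1.00 ± 0.12, adjusted p = 0.00103). Pfkp had 10.1, 7.52 and 8.28 FPKM in KO tumours, against 3.85, 4.61 and 5.08 FPKM in WT tumours (0.80 ± 0.13, adjusted p = 0.00395). These 3 were separate in every library. Gapdh (0.39, adjusted p = 0.0234) and Hif1a (0.30, adjusted p = 0.0402) were called less firmly, and Hif1a lost its call in 8 of 12 alternative settings. Gapdh lost its call without KO replicate 1 or 3 or WT replicate 1, and Ero1l without KO replicate 3 (adjusted p = 0.0538).

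Pgk1 was the one gene lower in KO tumours, with 496, 354 and 466 FPKM against 551, 564 and 657 FPKM in WT tumours (-0.44, adjusted p = 0.0391). It was not called without any 1 of the WT libraries, or without KO replicate 2 or 3. The 5 higher calls became 3 without KO replicate 1 and 2 without KO replicate 3, and rescaling to protein-coding genes gave 4 higher and 3 lower. Slc2a1 and Car9 overlapped between the groups here: Car9 had 7.20, 3.53 and 5.43 FPKM in KO tumours, against 4.08, 5.21 and 7.19 FPKM in WT tumours. Vegfa (0.06, adjusted p = 0.884) and Epas1 (0.52, adjusted p = 0.25) did not pass the test. Of the other lists, 8 of 15 ATF4 genes were higher and 0 lower (11 and 0 unadjusted), led by Slc7a11 (1.64), Vldlr (1.24) and Asns (0.89), 4 of 33 other hypoxia targets were higher and 2 lower, 2 of 15 other glycolysis genes were higher and 2 lower, 0 of 18 chaperones were higher and 1 lower, and 0 of 13 HIF regulators were called (3 higher and 0 lower at an unadjusted p under 0.05).

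Within MC38 KO tumours, anti-PD-1 went with lower levels than PBS for most of these genes. By limma 6 of 38 were lower (2.86% of all genes) and 0 higher (6.12% of all genes), with 19 lower and 3 higher at an unadjusted p under 0.05. Treated and PBS libraries did not overlap for 21 genes that were lower (15.9% of all genes) and 3 that were higher (14.6%), and the median was -0.35. Slc2a1 had 76.8, 49 and 70.4 FPKM with anti-PD-1, against 88.0, 108 and 119 FPKM with PBS (-0.69, adjusted p = 0.0418). The others called were Egln1 (-0.55, adjusted p = 0.0214), which had 28.8, 23.1 and 26.9 FPKM with anti-PD-1, against 35, 40.6 and 40.8 FPKM with PBS, and Bhlhe40 (-0.53, adjusted p = 0.0441), P4ha1 (-0.52, adjusted p = 0.0146), Pfkl (-0.52, adjusted p = 0.0203) and Plod2 (-0.42, adjusted p = 0.0493). Leaving out PBS replicate 2 or 3 or anti-PD-1 replicate 2 left 0 lower calls, and leaving out anti-PD-1 replicate 3 left 1.

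T cell markers summed to 42.4 to 63.8 FPKM with anti-PD-1 against 6.01 to 10 FPKM with PBS in these KO tumours, and all 10 tested were higher; 10 of 11 macrophage markers were higher too, at 1850 to 2460 FPKM against 525 to 1330 FPKM. Anti-PD-1 replicate 2, with the largest T cell, macrophage and muscle sums of the 3 (63.8, 2460 and 668 FPKM), had the lowest value of its group for 35 of the 41 genes. It was lowest for 34.3% of all genes tested in MC38. Of the other lists, 2 of 33 other hypoxia targets were higher and 1 lower, and 1 of 15 other glycolysis genes was higher and 1 lower. Of 13 HIF regulators 0 were higher and 1 lower, of 15 ATF4 genes 0 and 1, and of 18 chaperones 0 and 2. The higher ones included Hk3 (1.81) and Cxcr4 (0.95), both expressed by leukocytes. The part of these cells in the lower values was not tested. In MC38 WT tumours, 0 of 38 genes were called higher and 0 lower with anti-PD-1 (4 and 1 at an unadjusted p under 0.05 by limma), and 0% of all genes were called in either direction. The groups did not overlap for 5 genes that were higher (9.94% of all genes) and 1 that was lower (8.26%), and the median was 0.11. The KO effect differed between treatments for Pfkl, whose KO effect under anti-PD-1 minus that under PBS was -0.79 (adjusted p = 0.0387), and for none of the other 37 genes tested, where 0.626% of all genes were called lower and 1.81% higher. At an unadjusted p under 0.05, 17 were lower and 2 higher, counts that cannot be set against those adjusted shares. This difference uses the same KO libraries under PBS as both comparisons above, and the Pfkl call was lost without 1 of 9 of the 12 libraries, all but WT PBS replicate 3, KO PBS replicate 1 and KO anti-PD-1 replicate 1. Without either of these KO libraries, 5 genes were lower.

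In B16 tumours under PBS most genes were again higher in KO than in WT tumours, but 1 of 39 passed the test (0.279% of all genes) and 0 were lower (0.191%). At an unadjusted p under 0.05 by limma, 25 were higher and 0 lower. The groups did not overlap for 24 genes that were higher and 0 that were lower, where 7.54% and 13.7% of all genes did so. The median difference was 0.41, against -0.05 for all 13627 genes tested, and 37 of 39 differences were positive. The called gene was Slc2a3, a glucose importer of high affinity, with 5.47, 5.84 and 5.26 FPKM in KO tumours, against 3.32, 3.41 and 3.07 FPKM in WT tumours (0.61 ± 0.09, 1.69-fold, adjusted p = 0.0230). Its groups were well separated, yet the adjusted p was between 0.0516 and 0.0994 when any 1 of the 6 libraries was left out.

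The 5 genes with the largest differences in B16 under PBS, named after their values were seen, were not called. Ndrg1 had 40.5, 30.4 and 35.8 FPKM in KO tumours, against 25.2, 15.3 and 11.4 FPKM in WT tumours. Adm had 58.7, 35.1 and 52.0 FPKM in KO tumours, against 25.4, 18.7 and 25.1 FPKM in WT tumours. In both, every WT library was below the lowest KO library, with a wide spread inside the groups. Hk2 had 105, 85.9 and 102 FPKM in KO tumours, against 57.4, 40.5 and 47.7 FPKM in WT tumours. Car9 had 134, 100 and 107 FPKM in KO tumours, against 76.9, 66.5 and 39.8 FPKM in WT tumours. Ero1l had 334, 266 and 279 FPKM in KO tumours, against 198, 159 and 114 FPKM in WT tumours. The ratios of means of these 5 were 1.86 to 2.11, with no overlap in any. Hif1a (0.13, adjusted p = 0.539), Vegfa (0.58, adjusted p = 0.321) and Epas1 (-0.30, adjusted p = 0.648) did not pass the test. In the other lists 0 genes were called: of 32 other hypoxia targets 10 were higher and 1 lower at an unadjusted p under 0.05 by limma, of 13 HIF regulators 1 and 0, of 14 other glycolysis genes 1 and 0, of 14 ATF4 genes 2 and 0, and of 18 chaperones 0 and 4. T cell markers summed to 0.631 to 1.89 FPKM in KO tumours, against 2.10 to 4.63 FPKM in WT tumours, and macrophage markers to 102 to 254 FPKM against 183 to 289 FPKM. For these lists 0 of 5 and 0 of 11 were called, and none at an unadjusted p under 0.05. Fibroblast markers summed to 14.3 to 25.3 FPKM in KO tumours, against 40.7 to 138 FPKM in WT tumours, with 0 of 9 called and 3 lower at an unadjusted p under 0.05 by limma. Erythroid markers summed to 3458, 3649 and 198.8 FPKM in KO tumours, against 286.7, 206.7 and 176.9 FPKM in WT tumours, with 0 of 5 called, all 5 differences positive and 2 higher at an unadjusted p under 0.05. The part of these cells was not tested.

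The lines can be set side by side. Of the 38 genes tested in both, 31 had positive differences in both under PBS, and 17 were higher without overlap in both, of 25 in MC38 and 24 in B16: Aldoa, Car9, Ddit4, Ero1l, Gpi1, Hif1a, Higd1a, Hk2, Ndrg1, P4ha1, P4ha2, Pdk1, Pgam1, Plod2, Slc2a1, Tpi1 and Vegfa. Of the 21 called in MC38, 15 were higher without overlap in B16. Of all genes, 20.4% were higher without overlap in MC38 and 7.54% in B16. The shares of all genes that met these conditions in both lines were not computed, so the shared counts only describe the list. The KO effect itself was compared between lines in a fit of all 24 libraries with 39 genes of the list tested. It was larger in MC38 for 3 (6.02% of all genes) and smaller for 1 (3.44% of all genes). The 3 were Ero1l (difference of differences 1.20, adjusted p = 0.0481), Ddit4 (1.17, adjusted p = 0.0226) and Pfkp (0.90, adjusted p = 0.00849), and the 1 was Slc2a3 (-1.10, adjusted p = 9.83e-06), whose MC38 values were all under 1 FPKM. Ddit4 had 93.4, 85.8 and 97 FPKM in B16 KO tumours, against 76.5, 60.4 and 75.5 FPKM in B16 WT tumours, a ratio of 1.30. Pfkp had 30.4, 23.1 and 24.7 FPKM in B16 KO tumours, against 26.1, 22.4 and 23.3 FPKM in B16 WT tumours, which overlapped. The Ero1l call was lost in 13 of 17 alternative settings, and 1 higher call was left without MC38 WT replicate 2, MC38 KO replicate 3, B16 WT replicate 1 or B16 KO replicate 2. A second gene was lower without MC38 KO replicate 1 or B16 WT replicate 3. For the other 35 genes the test found no difference between lines, which does not show that the effects were alike.

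In B16 tumours with anti-PD-1, KO tumours had 6 of 39 genes higher (14.9% of all genes) and 4 lower (25.9% of all genes) than WT tumours. The groups did not overlap for 7 that were higher (19.2% of all genes) and 4 that were lower (31.5%). The higher genes were Slc16a3 (1.03, adjusted p = 0.0201), Car9 (0.88, adjusted p = 0.0176), Higd1a (0.86, adjusted p = 0.00809), Tpi1 (0.64, adjusted p = 0.00132), Gapdh (0.63, adjusted p = 0.0133) and Slc2a3 (0.34, adjusted p = 0.0108). Car9 had 98.2, 122 and 120 FPKM in KO tumours, against 85.6, 49.4 and 53.6 FPKM in WT tumours. Slc2a3 had 3.63, 4.13 and 4.28 FPKM in KO tumours, against 2.86, 2.80 and 3.22 FPKM in WT tumours. Both were higher in every KO library, as under PBS, where Car9 was not called.

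The lower genes were Kdm3a (-0.80, adjusted p = 0.000598), Pfkp (-0.51, adjusted p = 0.0157), Plod2 (-0.47, adjusted p = 0.0316) and Hif1a (-0.44, adjusted p = 0.00180). Kdm3a had 14.0, 17.4 and 21.2 FPKM in KO tumours, against 31.3, 29.2 and 32.1 FPKM in WT tumours. Hif1a had 33.4, 40.7 and 33.6 FPKM in KO tumours, against 49.7, 50.8 and 46.4 FPKM in WT tumours. The lower genes have long transcripts, with a median of 4788.5 bases (longest annotated), against 2760.5 bases for the higher ones. Over all protein-coding genes, the median difference in this comparison ran from 0.51 for transcripts up to 1000 bases to -0.69 for those over 8000. With the length trend removed, the 6 higher genes kept their calls and only Kdm3a stayed lower (-0.52, adjusted p = 0.00568), while Hif1a (adjusted p = 0.127) and Plod2 (adjusted p = 0.101) were no longer called and Pfkp turned to 0.11. The removal was incomplete for short transcripts. Their median difference was still 0.40 up to 1000 bases, and 0.13 in the next class, up to 2000 bases. That class holds Tpi1 (1607 bases), whose corrected difference was 0.44. Car9 (2023 bases) kept its call narrowly (adjusted p = 0.0489). Rescaling to protein-coding genes put the median of all genes at -0.23, against -0.05, and gave 3 higher and 7 lower. Leaving out WT replicate 1, the library with the highest value of its group for 33 of the 41 genes (33.5% of all genes), gave 17 higher and 2 lower calls. Leaving out KO replicate 1 gave 2 lower calls. Car9 lost its call without WT replicate 2 or 3, Gapdh and Plod2 without WT replicate 3, Slc16a3, Pfkp and Plod2 without WT replicate 1, and Pfkp and Plod2 without KO replicate 1. The 16 muscle markers summed to 14.8 to 2550 FPKM in KO tumours, against 3.40 to 4.39 FPKM in WT tumours. Only 4 of them passed the filter, and all 4 were higher. Macrophage markers (4 of 11 higher) summed to 512 to 1330 FPKM against 111 to 562 FPKM. T cell (3 of 5 tested, of 11 listed), adipocyte (2 of 5, of 7 listed), endothelial (2 of 11) and fibroblast markers (1 of 9) were higher too. Of 7 melanocyte markers, 1 was higher and 3 lower. The filter can be met by the 3 KO anti-PD-1 libraries alone. Markers high only there could thus enter, so these counts are not separate support for the sums. The part of these cells was not tested. Vegfa (0.02, adjusted p = 0.952) and Epas1 (0.38, adjusted p = 0.226) did not pass the test, nor did they with the length trend removed (0.10, adjusted p = 0.774, and 0.74, adjusted p = 0.0517). Of the other lists, 6 of 14 other glycolysis genes were higher and 1 lower, 6 of 32 other hypoxia targets were higher and 5 lower, 3 of 13 HIF regulators were higher and 4 lower, 0 of 14 ATF4 genes were higher and 2 lower, and 0 of 18 chaperones were higher and 8 lower. These counts over the other lists were not recomputed with the length trend removed.

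Within B16 KO tumours, anti-PD-1 against PBS gave 1 gene higher (18.9% of all genes) and 10 lower (25% of all genes). With anti-PD-1 the libraries lay outside the range of the PBS group for 3 that were higher (24.2% of all genes) and 15 that were lower (29.6%). Kdm3a (-1.05, adjusted p = 0.000134), Plod2 (-1.04, adjusted p = 0.000499), Ero1l (-1.12, adjusted p = 0.00582) and Hif1a (-0.65, adjusted p = 0.000211) were lower with and without the length trend. Ero1l had 122, 164 and 120 FPKM with anti-PD-1, against 334, 266 and 279 FPKM with PBS, and Plod2 had 41.9, 53.6 and 55.6 FPKM with anti-PD-1, against 101, 95.5 and 115 FPKM with PBS. For both genes the groups were far apart. Once the length trend was removed, Mxi1, Hk2, Pdk1 and Bnip3l were no longer called, and Pfkp (0.03) and Slc2a3 (0.02) lost their negative sign. The corrected fit called Bnip3 as a further lower gene (-0.74, adjusted p = 0.0277) and Epas1 as a further higher gene (0.90, adjusted p = 0.0225), neither of them called without the correction, so that 5 were lower and 2 higher. Without anti-PD-1 replicate 3, 2 genes were higher. Hk2 lost its call without any 1 of the 6 libraries but anti-PD-1 replicate 3, Bnip3l without any 1 but the second replicate of either group, and Mxi1 without replicate 1 of either group.

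Slc16a3 rose with anti-PD-1 in B16 KO tumours (1.31, adjusted p = 0.00580; 1.49, adjusted p = 0.00655 with the length trend removed). It had 8.68, 2.54 and 3.75 FPKM with anti-PD-1, against 1.51, 1.34 and 0.829 FPKM with PBS. The highest library, replicate 1, also had the largest sums of muscle markers (2550 FPKM, against 3.97 to 4.44 FPKM with PBS) and of macrophage markers (1330 FPKM, against 102 to 254 FPKM with PBS). All 4 tested muscle markers (of 16 listed) and 10 of 11 macrophage markers were higher with anti-PD-1. A marker could pass the filter through the 3 anti-PD-1 libraries alone. The part of these cells in the Slc16a3 result was not tested. In B16 WT tumours, 0 genes were called higher and 0 lower with anti-PD-1 by limma (0 and 0 also at an unadjusted p under 0.05), as for 0% of all genes, and for 0 genes did the groups not overlap, against 2.34% of all genes higher and 4.2% lower. The KO effect differed between treatments for 6 genes, all lower under anti-PD-1 (14.6% of all genes, and 8.9% higher): Ero1l (-1.28, adjusted p = 0.0294), Kdm3a (-1.13, adjusted p = 0.00207), Plod2 (-1.09, adjusted p = 0.00659), Hk2 (-1.07, adjusted p = 0.0496), Pfkp (-0.62, adjusted p = 0.0461) and Hif1a (-0.58, adjusted p = 0.00684). Kdm3a (adjusted p = 0.00703) and Plod2 (adjusted p = 0.0154) kept this with the length trend removed. Without any 1 of WT PBS replicates 2 or 3, KO PBS replicates 1 or 3 or KO anti-PD-1 replicate 1, 3 genes were lower, and without KO anti-PD-1 replicate 2, 1 was higher.

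**Figure D4:**
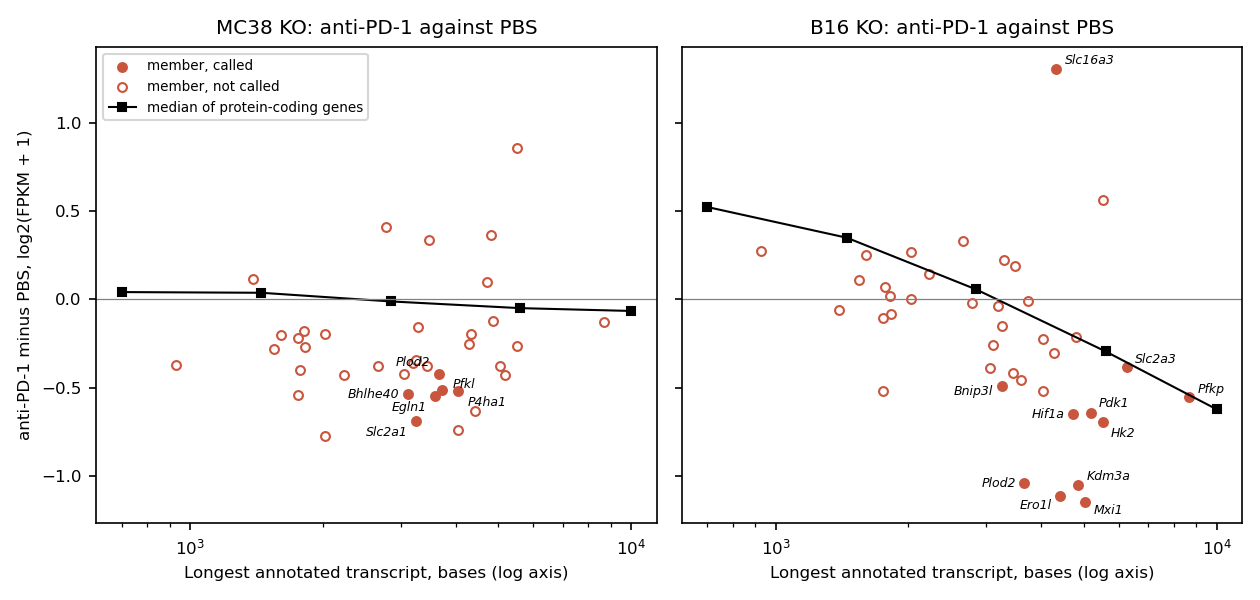
Difference of each gene of the list between anti-PD-1 and PBS in KO tumours (log2 scale) against its longest annotated transcript (log axis), in MC38 (left) and B16 (right); filled circles passed limma's adjusted p of 0.05, and black squares are medians of protein-coding genes in 5 length classes, drawn inside each class. The squares run from 0.52 to -0.62 in B16, where 10 filled circles lie below 0 and Slc16a3 lies at 1.31, and stay near 0 in MC38.

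Under PBS, the WT tumours of the lines differed in most of these genes: MC38 had 6 of 39 higher (31.1% of all genes) and 25 lower (31.2% of all genes) than B16, and the median was -0.77. Lines did not overlap for the same numbers, 6 higher (33.7% of all genes) and 25 lower (34%). The lactate exporter Slc16a3 was at 38.3 to 41.4 FPKM in MC38, against 1.26 to 1.62 FPKM in B16, and the oxygen sensor Egln3 at 29.5 to 33.8 FPKM against 1.73 to 3.08 FPKM (4.03 and 3.23, adjusted p = 3.57e-11 and 2.43e-11 by limma). Car9 was at 2.74 to 4.14 FPKM in MC38, against 39.8 to 76.9 FPKM in B16 (-3.75, adjusted p = 1.86e-10), and Aldoc at 1.03 to 1.31 FPKM against 15.0 to 19.8 FPKM (-3.10, adjusted p = 4.88e-13). Pfkp (-2.26), Tpi1 (-1.85), Eno1 (-1.55), Aldoa (-1.54), Pfkl (-1.45) and Gapdh (-1.45) were lower in MC38 as well. Line and any batch of its processing cannot be told apart.

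Within a group, 1 library often held the highest value for most of the genes. Of the 41 genes, B16 WT anti-PD-1 replicate 1 was highest of its 3 for 33 (33.5% of all genes tested in B16), B16 KO PBS replicate 1 for 32 (32.1%), B16 WT PBS replicate 1 for 30 (25.8%), and in MC38 WT anti-PD-1 replicate 3 for 32 (28.3%) and KO anti-PD-1 replicate 1 for 32 (30.1%). In the other 3 groups the leading library was highest for 21 to 24 of the 41 (25.6 to 36.4% of all genes). In B16 WT anti-PD-1 replicate 1, Ero1l stood at 258 FPKM, against 127 and 154 FPKM in the other libraries of the group, Ddit4 at 118 against 51.8 and 60.6 FPKM, and Ankrd37 at 9.38 against 3.16 and 4.24 FPKM. The same library had the lowest macrophage (111 FPKM) and T cell (1.21 FPKM) sums of its 3; the part of these cells was not tested. Over all 41 genes the mean of log2(FPKM + 1) under PBS was 4.98, 5.11 and 5.04 in MC38 KO tumours, against 4.51, 4.59 and 4.74 in MC38 WT tumours, and 5.73, 5.48 and 5.54 in B16 KO tumours, against 5.32, 5.08 and 5.03 in B16 WT tumours.

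Counting could blur some genes. Transcripts of 11 of the 41 were near-identical (at least 95% over at least 300 bases) to another annotated gene. For Gapdh 42 such genes summed to 138% of its own FPKM, for Eno1 3 genes to 67.4%, for Pgam1 1 gene to 58.3% and for Pgk1 3 genes to 37.9%, so their levels are uncertain. Pfkp shares sequence with its neighbour Pitrm1, which it overlaps and which had 129% of its FPKM. The Pfkp values with the length trend removed rest on a longest annotated transcript of 8681 bases, which may not be the one measured. Ero1l, Ddit4, Slc2a1, Car9 and Hif1a had no such copy.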

How the data were processed

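Total RNA of 24 tumour samples was sequenced on Illumina instruments after Trizol extraction, per the labels' protocols. The deposited tables hold FPKM per gene, which the authors made from reads on the mm10 build; STAR 2.5, FastQC, DESeq and Cuffnorm are named in the submitters' processing notes, without order or role. How they were combined, and whether strand was used, is not given in the sources used here. FPKM are not counts, so no count test was run; log2(FPKM + 1) was fitted with limma 3.58.1 (R 4.3.3, intensity trend), with 1 mean per group, over the 12 libraries of a line, or all 24 to compare lines. Genes needed at least 1 FPKM in at least 3 libraries of the fit. Adjusted p-values are Benjamini-Hochberg over all genes of a fit, with 0.05 as the threshold. The log2 differences are understated for low genes by the added 1, while folds are ratios of mean FPKM without it. Fits were tried on simulated data with noise drawn separately for each gene, which cannot vouch for calls on genes that vary together. Of 55335 gene IDs, 55154 matched GENCODE M21 (GRCm38). Of 2 gene models named Aldoa, the one at the RefSeq position was used.

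Test values are given for at most 20 called genes of the list per comparison (10 for interactions and between lines), those with the largest change, for Hif1a, Epas1 and Vegfa between genotypes, and for at most 3 called genes a direction from each other list. The genes and lists were chosen with earlier results of these data known. Alternatives were a pseudocount of 0.1, no filter, quantile normalization, protein-coding genes rescaled to 1 total, only the libraries compared and each library left out. After seeing the data, removal of each library's trend over transcript length (lowess, span 0.3) and a B16 fit without the KO anti-PD-1 libraries were added. In comparisons that use the B16 KO anti-PD-1 libraries, the trend was not fully removed for transcripts up to 2000 bases. Promoters are from RefSeq (GRCm38.p6). One gene of the other lists is not reported here.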

Additional observations from a re-analysis of the deposited data

Results flagged for a closer look

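In MC38 the effect of the knockout differed between treatments for Pfkl: KO minus WT under anti-PD-1 less KO minus WT under PBS was -0.79 on the log2 scale, by the interaction term of limma. The call was lost in 10 of 17 alternative settings. Of all genes tested in MC38, 0.626% were called lower and 1.81% higher. In B16 the same difference was -1.28 for Ero1l, -1.13 for Kdm3a, -1.09 for Plod2, -1.07 for Hk2, -0.62 for Pfkp and -0.58 for Hif1a. Of all genes tested in B16, 14.6% were called lower and 8.9% higher. Of 17 alternative settings, the call was lost in 12 for Hk2, 11 for Pfkp, 8 for Ero1l and 1 for Hif1a. With the trend over transcript length removed, Kdm3a and Plod2 still passed the test. Between lines, the effect of the knockout under PBS differed, as MC38 minus B16, by 1.20 for Ero1l, 1.17 for Ddit4, 0.90 for Pfkp and -1.10 for Slc2a3. Of all genes, 6.02% were called larger in MC38 and 3.44% smaller. The call was lost in 13 of 17 alternative settings for Ero1l and in 4 for Ddit4. Slc2a3 was under 1 FPKM in every MC38 library.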

How the results depend on the processing

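No paired analysis was possible because the labels give no replicate numbers. Counts of called genes are compared here with those of the report. Without the filter, MC38 KO against WT gave 1 lower under PBS, and 3 higher and 0 lower under anti-PD-1. The same setting gave 1 lower for anti-PD-1 in MC38 KO, 0 lower for the MC38 interaction, 3 higher for B16 KO against WT under anti-PD-1, 3 lower for the B16 interaction and 2 smaller in MC38 between lines. Quantile normalization gave 0 lower for MC38 KO against WT under anti-PD-1, 3 lower for the MC38 interaction, 2 higher for anti-PD-1 in B16 KO and 11 lower for the B16 interaction. Rescaling to protein-coding genes gave 3 lower for MC38 KO against WT under anti-PD-1, 7 lower for the MC38 interaction, 3 higher and 7 lower for B16 KO against WT under anti-PD-1 and 11 lower for the B16 interaction. Fitting only the libraries compared gave 3 higher and 0 lower for MC38 KO against WT under anti-PD-1, 2 lower for anti-PD-1 in MC38 KO and 0 higher for B16 KO against WT under PBS. Removing the length trend gave 0 lower for MC38 KO against WT under anti-PD-1, 1 lower for B16 KO against WT under anti-PD-1, 2 higher and 5 lower for anti-PD-1 in B16 KO and 2 lower for the B16 interaction. Leaving out 1 library at a time gave ranges of 14 to 22 higher and 0 lower for MC38 KO against WT under PBS, 2 to 6 higher and 0 to 2 lower under anti-PD-1, 0 higher and 0 to 7 lower for anti-PD-1 in MC38 KO, 0 called for anti-PD-1 in either WT, and 0 higher and 0 to 5 lower for the MC38 interaction. In B16 the ranges were 0 called for KO against WT under PBS, 4 to 17 higher and 2 to 5 lower under anti-PD-1, 1 to 2 higher and 7 to 9 lower for anti-PD-1 in KO, and 0 to 1 higher and 3 to 7 lower for the interaction. Between lines they were 1 to 3 larger and 1 to 2 smaller in MC38 for the knockout effect, and 6 higher and 23 to 25 lower for WT tumours. In all these cases the cause was not tested. The pseudocount and the B16 fit without KO anti-PD-1 libraries moved no count beyond 1.5 times. Single genes kept their direction and side of the threshold in 1301 cases, lost a call in 294, gained one in 2 and changed sign in 11. Vegfa in B16 KO against WT under anti-PD-1, main value 0.02, was -0.12 with quantile normalization, -0.22 with protein-coding rescaling, -0.19 and -0.07 without WT replicate 2 and 3, and -0.05 and -0.08 without KO replicate 2 and 3. Its highest value with 1 library left out was 0.32. In MC38, with 1 anti-PD-1 library left out, it ran between -0.12 (WT replicate 1) and 0.26, and was -0.06 without KO replicate 1. With the length trend removed, Pfkp was 0.11 in B16 KO against WT under anti-PD-1 and 0.0252 for anti-PD-1 in B16 KO, where Slc2a3 was 0.0236; both depend on the 3 B16 KO anti-PD-1 libraries. With 3 libraries a group, small differences may have been missed, more so for genes with a wide spread.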
